A study of Mus musculus with 8 samples.

Results

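The loci described here are those of 10 transcription factors that direct early lineages, Cdx2, Eomes and Hand1 for the trophectoderm and its descendants, Gata4, Gata6, Sox17 and Foxa2 for the endoderm, and Pax6, Otx2 and Sox1 for the anterior and neural ectoderm. They were chosen by name, and the window of a gene was its span in GRCm38 with 100 kb on either side. They are 10 of the 21887 protein-coding genes that the RefSeq table places on the autosomes, X and Y, and their windows cover 2.18 Mb. Of the 20955 OCT4 summits listed over 6 libraries, 18 lay in these windows. OCT4 was profiled by CUT&RUN, in which an antibody brings a nuclease to the bound protein and the released DNA is sequenced. The cells were untreated male E14 mouse embryonic stem cells, labelled as strain C57BL/6J and grown without feeders in N2B27+2i, a medium whose inhibitors hold the cells in the naive state. Released DNA went into 3 preparations with 2 OCT4 libraries each, conventional sequencing, bisulfite sequencing and hmC-Seal. Conventional sequencing does not read cytosine modification. Of the bisulfite reads, those called methylated were kept, and bisulfite sequencing does not tell 5-methylcytosine from 5-hydroxymethylcytosine. The hmC-Seal preparation pulls down fragments carrying 5-hydroxymethylcytosine. The 2 IgG libraries, 1 conventional and 1 bisulfite, show what the nuclease releases without a specific antibody. They enter through the background against which MACS 2 computed fold enrichment, a ratio, and the p- and q-values. That background is local or genome-wide, whichever is higher. No IgG library was prepared by hmC-Seal, so what the pull-down enriches without the OCT4 antibody was not measured.

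OCT4, together with SOX2 and NANOG, holds embryonic stem cells in the pluripotent state, and genes that drive differentiation are largely inactive there. OCT4 and CDX2 are known to antagonise each other when the inner cell mass and the trophectoderm separate, and EOMES acts downstream in the trophoblast and later in mesoderm and definitive endoderm. Transcription was not measured in these libraries, so whether the 10 genes are silent in these cells was not checked and they are called lineage regulators below.

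The lists differ greatly in length. They hold 227 and 265 summits for conventional 1 and 2 (libraries are named by preparation and replicate number), 2797 and 2077 for bisulfite 1 and 2, and 3974 and 11615 for hmC-Seal 1 and 2. Read totals are not in the lists, and how many fragments made up a summit was estimated from its fold enrichment and −log10 p. The median summit rested on an estimated 13 and 12 fragments for conventional 1 and 2, 19 and 20 for bisulfite 1 and 2, 16 for hmC-Seal 1 and 4 for hmC-Seal 2. The longest list is thus the one whose summits rest on the fewest fragments.

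In the windows of the lineage regulators, conventional 1 and 2 had 0 and 0 summits, bisulfite 1 and 2 had 3 and 3, and hmC-Seal 1 and 2 had 4 and 8. The mean of the conventional libraries was 0 ± 0 (SD, n = 2 libraries), that of the bisulfite libraries 3 ± 0 (SD, n = 2) and that of the hmC-Seal libraries 6 ± 2.83 (SD, n = 2). The preparations did not overlap in these numbers, and their order is that of the lengths of the lists. A uniform density over each gene's own chromosome would have placed 0.176 and 0.194 summits in these windows in conventional 1 and 2, so the uniform number there is itself below 1 and a depletion could not have been seen.

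The same uniform density gave 2.23 and 1.69 summits for bisulfite 1 and 2, and 3.08 and 9.32 for hmC-Seal 1 and 2. Observed over uniform, the ratios were 1.34 and 1.78 in the bisulfite libraries and 1.30 and 0.858 in the hmC-Seal libraries. The 95% exact Poisson interval of the observed number ran from 0.619 to 8.77 in each bisulfite library, from 1.09 to 10.2 in hmC-Seal 1 and from 3.45 to 15.8 in hmC-Seal 2, so that each contains the uniform number; these intervals cover counting error only. Over all libraries the windows held 18 summits where uniform placement gave 16.7. The mean ratio was 1.56 ± 0.305 (SD, n = 2 libraries) in the bisulfite lists and 1.08 ± 0.311 (SD, n = 2) in the hmC-Seal lists. Both depend on the window: they were 0.415 and 0.398 with 50 kb on either side and 0.853 and 0.408 with 20 kb. In both of these windows the bisulfite summit was in bisulfite 1 and every hmC-Seal summit in hmC-Seal 2. Bisulfite 2 and hmC-Seal 1 had no summit there, so each mean rests on a single library. The hmC-Seal ratio also fell below 1 with an estimated pileup of at least 10 (0.694), with the mean window of all protein-coding genes in place of the uniform number (0.826), with regions in place of summits (0.947) and with a −log10 q of at least 3 (0.965). At a pileup of at least 10, every hmC-Seal summit kept was in hmC-Seal 1, those of hmC-Seal 2 reaching at most 7. The mean of 0.694 thus describes neither library. Without Eomes the other 9 windows held 10 summits against 14.9. Their ratio was then 0.502 and 1.33 in bisulfite 1 and 2, on 1 and 2 summits, and below 1 in both hmC-Seal libraries with a mean of 0.663, so bisulfite 2 stayed above 1. This setting was chosen after its values were seen.

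**Figure D1:**
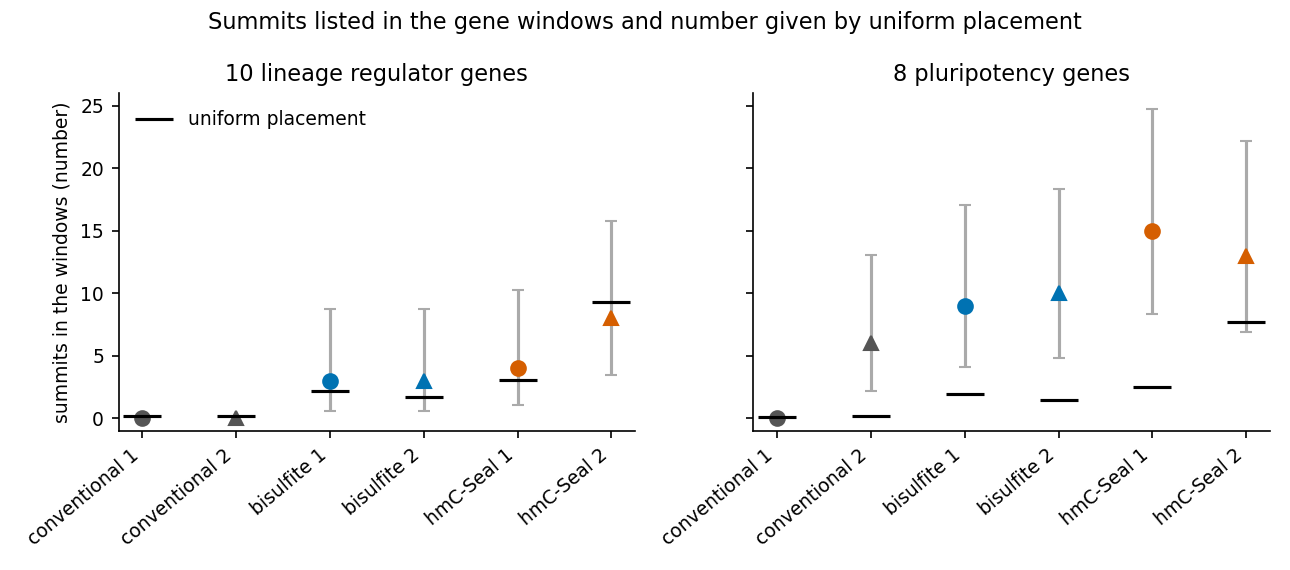
Number of OCT4 summits in the gene windows (y axis) in each of the 6 libraries, for the 10 lineage regulators and for 8 pluripotency genes. Points are observed numbers, grey bars 95% exact Poisson intervals (not drawn at 0) and black lines the number given by uniform placement on the same chromosome; for the lineage regulators the line lies inside every bar drawn, at 8 observed against 9.32 in hmC-Seal 2.

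Of the 10 genes, 7 had a summit in at least 1 library, against 75.4% of all protein-coding genes with the same window. Hand1, Gata4 and Sox17 had 0 in every library. In conventional 1 and 2, 0 and 0 genes had a summit, against 2.03% and 2.32% of all genes. In bisulfite 1 and 2, 2 and 3 genes had one, against 21.8% and 17.3%. In hmC-Seal 1 and 2, 3 and 5 genes had one, against 30.6% and 64.1%. With both libraries of a preparation together, 0 genes had a summit in conventional, beside 3.23% of all genes, 4 in bisulfite, beside 28.2%, and 7 in hmC-Seal, beside 71.4%, but 2 with bisulfite 1 alone and 3 with hmC-Seal 1 alone. In each list the number of the 10 genes with a summit is within 2 genes of what the share of all genes gives. Per gene and summed over the 6 libraries, the lineage regulators had a median of 1.5 summits and a mean of 1.8, and all protein-coding genes a median of 1 and a mean of 2.06, an entry between neighbouring genes being counted for each.

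**Figure D2:**
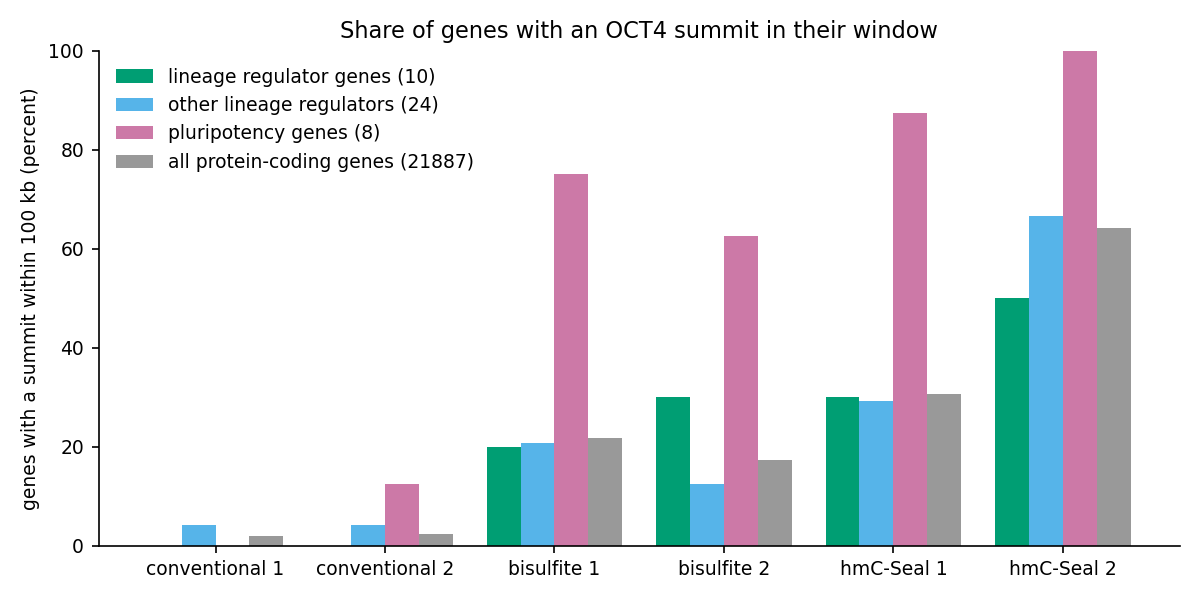
Percent of genes with at least 1 OCT4 summit in the gene span or within 100 kb of it (y axis) in each of the 6 libraries. Bars are the 10 lineage regulators, 24 other lineage regulators, 8 pluripotency genes and all 21887 protein-coding genes; the lineage regulators stand at 20% and 30% in the bisulfite libraries beside 21.8% and 17.3% for all genes.

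None of the 18 summits lay inside the span of a lineage regulator, where uniform placement gave 1.31, and 0 of the 10 genes had a summit in the span against 16.5% of all protein-coding genes. These spans are short, with a median of 7223 bp against 17169 bp over all protein-coding genes, and Gata4, the longest, measures 72799 bp. The distance of the summits to the gene start had a median of 71.9 kb and ran from 4.985 kb to 97.4 kb. Within 50 kb of a span lay 5 of the 18, or 27.8%, where uniform placement gives 53.9%; over all protein-coding genes with a known strand 58.4% of the summits in the windows did, against 59.7% by uniform placement. Upstream of the gene start lay 17 of the 18, and 1 lay past the gene end. Over all protein-coding genes with a known strand, 51.1% of the summits outside the span were upstream. The 18 summits form 13 places, joined where entries overlap by at least 1 bp, and 5 of the 18 belong to 1 place upstream of Eomes, so they are not independent draws.

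**Figure D3:**
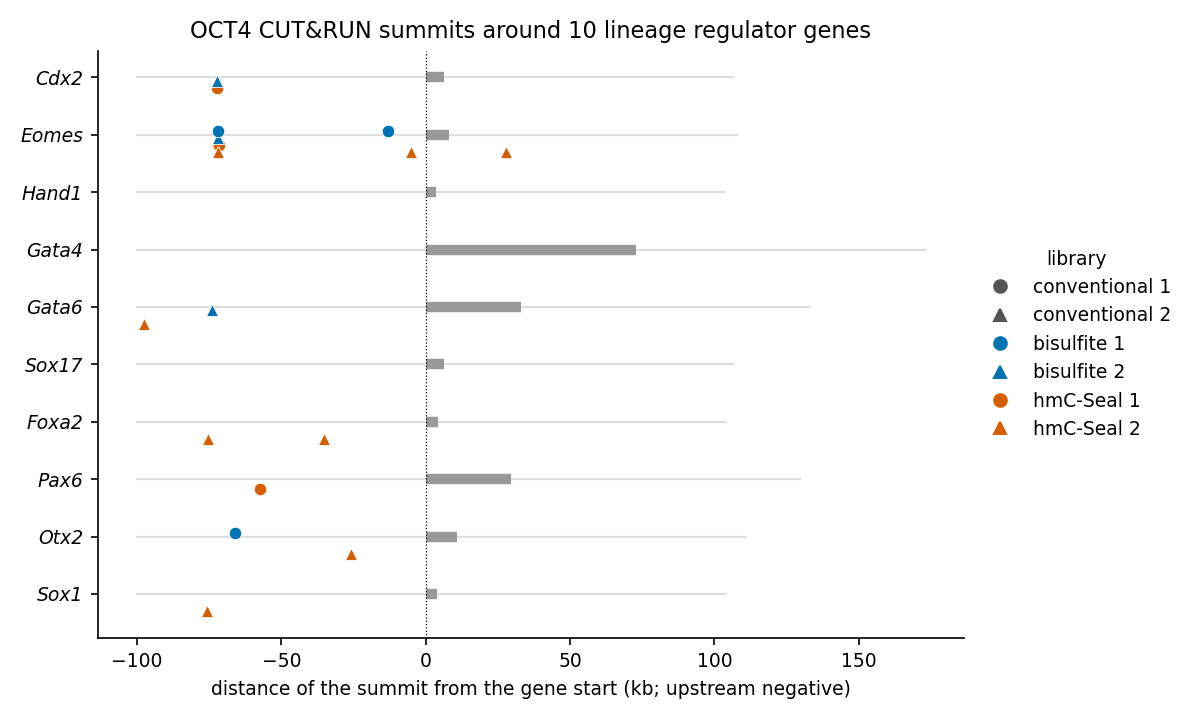
Distance in kb of each OCT4 summit from the start of the gene (x axis, upstream negative) for the 10 lineage regulators (y axis). Thick grey bars are gene spans, thin lines the windows, and symbols the summits of each library; no symbol lies on a span, and 17 of 18 lie to the left of the gene start.

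Of the 13 places, 11 were called in 1 library, and 7 of those in hmC-Seal 2 alone. Places called in 2 or more libraries occurred at 2 of the 10 genes, Eomes and Cdx2, against 20.8% of all protein-coding genes. A place called in 4 or more libraries occurred at 1 of the 10, Eomes, against 4.55%. Over the genome, 2329 of 15828 places were called in at least 2 libraries and 445 in at least 4. At Gata6 and Otx2, bisulfite and hmC-Seal libraries both had a summit, but at different places.

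Among the trophectoderm regulators, Eomes (chr9:118478186-118486132, plus strand) had the most summits of the 10 genes. Its window held 0 and 0 summits in conventional 1 and 2, 2 and 1 in bisulfite 1 and 2, and 2 and 3 in hmC-Seal 1 and 2, 8 in all where uniform placement gave 1.79. All 4 bisulfite and hmC-Seal libraries were above both conventional libraries. Among all protein-coding genes, 8.94% had both bisulfite libraries above both conventional libraries, and 1 of the 10 lineage regulators did; for hmC-Seal the share was 21.8%, and again 1 of the 10. The difference was 1.5 summits for bisulfite and 2.5 for hmC-Seal (two-sided exact permutation test, p = 0.33 for each, the smallest that 2 libraries against 2 allow, and 1 after Benjamini-Hochberg adjustment over 21887 genes). In 688 of the 21887 protein-coding genes, 3.14%, the window held 8 or more summits over the 6 libraries.

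The place shared by 4 libraries lies 71.9 kb upstream of Eomes, at chr9:118406225-118406459, inside the span of Platr11, a long non-coding RNA gene of a group named for transcripts associated with pluripotency. Eomes is the nearest protein-coding gene. Bisulfite 1 and 2 listed it with fold enrichments of 4.71 and 5.31, at ranks 2185 of 2797 and 1373 of 2077 by −log10 q. In hmC-Seal 1 it was called as 2 summits of 8.96 and 5.73, at ranks 1407 and 2392 of 3974, and in hmC-Seal 2 as 1 summit of 5.19 at rank 5169 of 11615. Its best rank stood at 35.4% of the list, in hmC-Seal 1, and its rank in bisulfite 1 at 78.1%, and in both bisulfite lists its fold was below the median of the list, 5.91 and 6.26. The summit rested on an estimated 21 fragments in bisulfite 2, 19 in hmC-Seal 1 and 7 in hmC-Seal 2. Neither conventional list holds an entry here; 252 places over the genome were called, like it, in both bisulfite and both hmC-Seal libraries and in neither conventional one.

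The remaining Eomes summits were each seen in 1 library. The nearest to the start of any of the 10 genes lies 4985 bp upstream of Eomes, at chr9:118473198-118473301, inside the long non-coding RNA gene Gm33408. It was called in hmC-Seal 2, with a fold enrichment of 4.31 and at rank 5794 of 11615. The summit of best rank in the window, at 22.9% of the list, lies on the other side of the gene, 27.7 kb from its start at chr9:118505887-118505989 and 207 bp from the span of Golga4, a Golgi protein gene. It was called in hmC-Seal 2 too, with a fold enrichment of 6.05, and rested on an estimated 6 fragments.

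Cdx2 (chr5:147300900-147307249, minus strand), the gene with which OCT4 is best known to compete, had 1 place, 72.4 kb upstream at chr5:147379537-147379675. It lies inside the span of Flt3, which encodes a receptor tyrosine kinase of blood progenitors. hmC-Seal 1 listed it with a fold enrichment of 11.7 at rank 806 of 3974 and on an estimated 23 fragments. Bisulfite 2 listed it with 5.98 at rank 1420 of 2077. The 2 summits are 10 bp apart, and the other 4 libraries did not list the place. In the number of summits at Cdx2 the preparations overlapped, each of bisulfite and hmC-Seal having 1 library at 1 and 1 at 0 (exact permutation test against conventional, p = 1 for both).

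The promoter of Cdx2 bears no OCT4 summit, the nearest region lying 72038 bp away. Promoters, taken as the 250 bases before a transcript start, are given by RefSeq (GRCm38.p6) for 6 of the 10 genes, Cdx2, Eomes, Foxa2, Pax6, Otx2 and Sox1, in 12 entries, some of them at starts inside the gene. A search for the octamer ATGCAAAT, a motif that OCT4 is known to bind, on both strands (ATTTGCAT on the other) found it in 1 of these 12, that of Cdx2, and in 1.60% of all 32851 promoters of the table. It begins at base 104 of the 250. The Cdx2 and Eomes promoters are shown because the first holds the octamer and the second lies nearest to a called region, 4638 bp away; capitals mark CpG dinucleotides, the sites at which methylation and hydroxymethylation are mostly found, and both are written 5′ to 3′ on the strand of the gene.
Cdx2, chr5:147307250-147307499, minus strand: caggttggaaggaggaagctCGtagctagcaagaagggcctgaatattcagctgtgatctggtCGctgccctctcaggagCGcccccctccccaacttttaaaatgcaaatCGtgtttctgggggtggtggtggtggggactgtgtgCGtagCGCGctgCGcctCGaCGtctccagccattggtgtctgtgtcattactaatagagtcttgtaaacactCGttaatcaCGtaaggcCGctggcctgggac
Eomes, chr9:118477939-118478188, plus strand: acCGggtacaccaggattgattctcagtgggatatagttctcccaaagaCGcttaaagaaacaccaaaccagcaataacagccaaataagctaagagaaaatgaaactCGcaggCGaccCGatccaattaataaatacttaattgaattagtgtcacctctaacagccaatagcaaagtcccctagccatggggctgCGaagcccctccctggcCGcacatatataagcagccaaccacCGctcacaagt
In the Cdx2 promoter the octamer, atgcaaat, runs directly into a CpG. Cdx2 has 13 CpG in these 250 bases and Eomes has 8, against a median of 6 over all promoters of the table. Over the 12 entries the number ran from 6 to 29, the highest in Sox1, with a median of 13. No OCT4 region of any library overlaps any of the 12, and of all 32851 promoters only 0.402% are overlapped in at least 1 library, so a count of 0 does not set these genes apart.

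Hand1 (chr11:57828713-57832147, minus strand), which acts in trophoblast giant cells and in the heart, had no summit in the 6 libraries. Uniform placement gave its window 1.82 summits over the 6 lists.

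Of the endoderm regulators, Gata4 (chr14:63198914-63271712, minus strand) and Sox17 (chr1:4490928-4497426, minus strand) had no summit either, where uniform placement gave 1.88 and 1.58 over the 6 lists. Gata6 (chr18:11052510-11085636, plus strand), the GATA factor that sets primitive endoderm apart from epiblast, had 2 places, each in 1 library. The nearer, 73.9 kb upstream at chr18:10978553-10978644 inside the long non-coding RNA gene Gm35814, was called in bisulfite 2 with a fold enrichment of 4.91. Its fold was below the median of that list, 6.26, while by −log10 q, at 8.15, it ranked 646 of 2077, the best rank of the 3 summits from that list. It rested on an estimated 40 fragments, the most of the 13 summits to which a number could be assigned. With its low fold, that many fragments mean a local background above the genome-wide one of that list. The other Gata6 summit, 97.4 kb upstream, came from hmC-Seal 2 with a fold enrichment of 4.22.

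Foxa2 (chr2:148042877-148046969, minus strand), a pioneer factor of definitive endoderm, had 2 summits, both in hmC-Seal 2. They lie 35.4 kb and 75.6 kb upstream, with fold enrichments of 3.46 and 3.89. Both stand at rank 8501 of 11615, which 2815 entries of that list share with the same −log10 q of 1.48. They rested on an estimated 3 and 5 fragments.

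Among the ectoderm regulators, Pax6 (chr2:105668896-105698410, plus strand), which directs the eye and forebrain, had 1 summit, in hmC-Seal 1. It lies 57.6 kb upstream at chr2:105611286-105611384, inside the long non-coding RNA gene Pax6os1, with a fold enrichment of 7.80 at rank 2038 of 3974 and an estimated 14 fragments. This is the one region of the 13 that lies within a RefSeq promoter sequence, that of the long non-coding RNA gene Gm35946, whose start is 191 bp from the summit. The called region is shown for that reason, on the plus strand, with CpG dinucleotides in capitals.
Pax6 region, chr2:105611286-105611384, plus strand: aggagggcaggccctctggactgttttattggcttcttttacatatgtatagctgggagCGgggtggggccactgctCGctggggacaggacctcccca
It holds 2 CpG in 99 bases, 58.6% of its bases are G or C, and the octamer ATGCAAAT is on neither strand.

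Otx2 (chr14:48656781-48667644, minus strand), a homeobox gene of the anterior neural plate that is also used when cells leave the naive state, had 2 summits at different places, both inside the span of Otx2os1, the long non-coding RNA gene next to it. Bisulfite 1 had 1 at chr14:48733593-48733687, 66.0 kb upstream, with a fold enrichment of 6.26 at rank 1327 of 2797 and an estimated 23 fragments. hmC-Seal 2 had 1 at chr14:48693501-48693586, 25.9 kb upstream, with 3.46 on an estimated 3 fragments. Sox1 (chr8:12395519-12399555, plus strand), an early marker of neural cells, had 1 summit, 75.7 kb upstream at chr8:12319761-12319851 in hmC-Seal 2, also with 3.46 and 3 fragments. Foxa2 and Sox1 are the 2 genes whose summits came from hmC-Seal 2 alone.

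Ranks give tied summits their best place. The median rank of the summits at lineage regulators stood at 78.1% and 66.1% of the list in bisulfite 1 and 2, at 43.3% in hmC-Seal 1 and at 68.9% in hmC-Seal 2. In hmC-Seal 2 the tie at rank 8501, which holds 4 of the 8 summits, runs to 97.4% of the list, and with ties at their last place the median is 81.4%. The best was the Cdx2 summit of hmC-Seal 1 at 20.3%. The median fold enrichment of the summits at lineage regulators was 8.38 in hmC-Seal 1 against 6.97 for that whole list, and 4.06 in hmC-Seal 2 against 4.32. In the bisulfite replicates it was 4.71 and 5.31 against 5.91 and 6.26. Fold enrichment and −log10 q are not scaled between lists, so each is read within its own list.

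**Figure D4:**
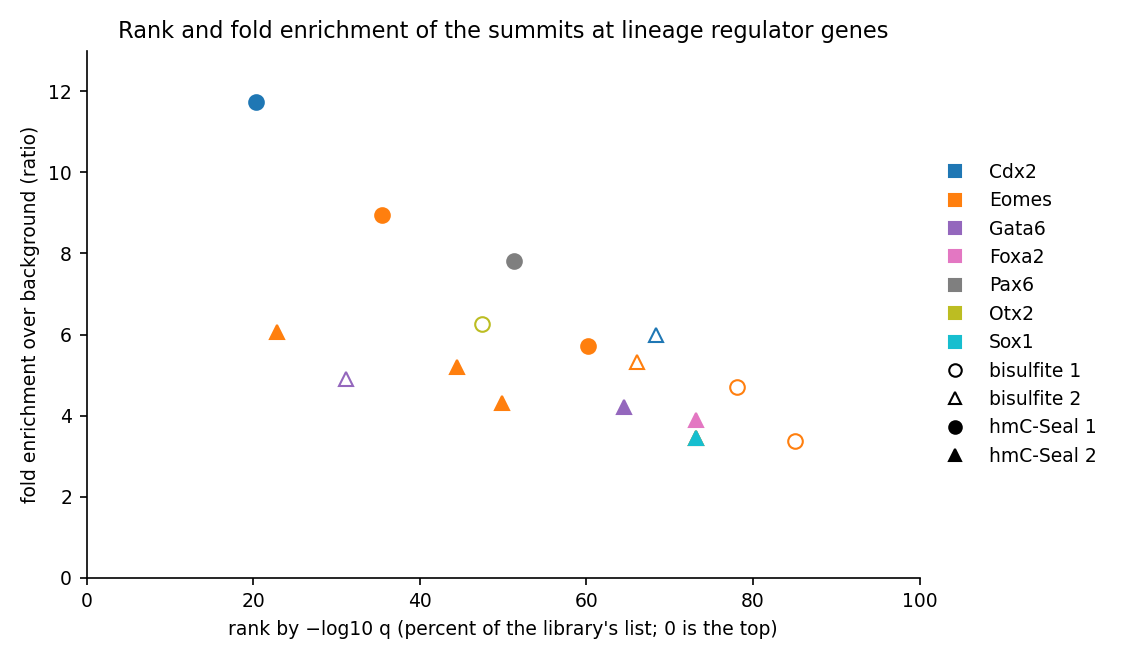
Rank by −log10 q as a percent of the library's list (x axis, 0 at the top) and fold enrichment over background (y axis, ratio) of the 18 summits in the windows of the lineage regulators. Colours are genes and symbols libraries; of the 4 summits of hmC-Seal 1 that of Cdx2 is the highest at 11.7, and in hmC-Seal 2 1 summit each of Foxa2, Otx2 and Sox1 coincides at 3.46, so that the Sox1 symbol covers the others.

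For comparison, of 24 other regulators of early lineages 17 had a summit in at least 1 library, beside the 75.4% of all protein-coding genes, with 48 summits over the 6 libraries where uniform placement gave 41.6. By lineage, 4 of 6 trophectoderm, 5 of 6 endoderm, 2 of 6 mesoderm and 6 of 6 ectoderm regulators had one. The 2 mesoderm summits and 10 of the 12 ectoderm summits were in hmC-Seal 2, and neither lineage had one in a conventional or bisulfite library. The windows of 8 pluripotency genes, Pou5f1, Sox2, Nanog, Klf4, Esrrb, Tfcp2l1, Prdm14 and Zfp42, held 53 summits where uniform placement gave 14.0, and each of the 8 had at least 1. The ratio to uniform placement was 4.61 and 6.76 in bisulfite 1 and 2, against 1.34 and 1.78 at the lineage regulators, and 5.98 in hmC-Seal 1, against 1.30. In hmC-Seal 2 it was 1.68 against 0.858, and in conventional 1 and 2 the pluripotency windows held 0 and 6 summits, all 6 at Pou5f1. All 14 summits at Pou5f1 were in the libraries numbered 2, with 6 in conventional 2, 5 in bisulfite 2 and 3 in hmC-Seal 2. The 6 of conventional 2 all lie in the called regions chr17:35503344-35503820 and chr17:35503979-35504539. Several summits can thus share a region or a place here too, and they are not independent draws. Without Pou5f1, a setting chosen after its values were seen, the 7 other windows held 39 summits against 12.3, with 0 in either conventional library. Bisulfite 1 and 2 then had ratios of 5.16 and 3.88, and hmC-Seal 1 and 2 had 6.96 and 1.46. The difference between the gene lists was not tested, since the members of both were chosen with results known.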

How the data were processed

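The 6 OCT4 peak lists, 2 for each preparation, were grouped and numbered by the labels. The authors trimmed reads with fastp 0.19.4, aligned them with Bowtie 2 (2.4.1) or, for bisulfite and hmC-Seal, Bismark 0.22.3 to GRCm38, kept inserts of at most 120 bp, and called peaks per library with MACS 2 against IgG at a q-value of 0.05, with neither pooled replicates nor spike-in calibration. Each deposited entry is 1 summit with its fold enrichment (a ratio over the local or genome-wide background of MACS 2), −log10 p and −log10 q, and the authors' score, the whole part of −log10 q times 10, was not used. An entry was counted where its region overlapped a window by at least 1 bp, and ranked by −log10 q within its list, ties taking the best rank. The uniform number is the entries on a chromosome times window length over chromosome length, where a chromosome ends at the last listed entry or gene, with unmappable stretches included. Gene spans are those of RefSeq GRCm38.p6, which gives no exons here; strands came from its promoter table for 6 genes and by symbol from GENCODE M1 for 4. Fragments were estimated from fold and −log10 p by the Poisson formula of MACS 2, for 76.9% to 86.7% of the summits of a list. This procedure was set up with the peak lists already examined. On simulated lists at least 86.5% were assigned, all correctly for the backgrounds simulated. Whether that rate holds at the local backgrounds of the summits named here was not tested. Numbers per gene were compared between preparations by two-sided exact permutation tests over all protein-coding genes. p-values measure only the spread between libraries, which may be technical. Named were all 10 genes and, in a window, places called in 2 or more libraries, nearest the gene start or of best rank; some others are given to account for every gene. The members and lists were chosen with earlier results of these data known. Alternatives were the unit of a site, the window, the threshold, lists of equal length, a minimum pileup, other densities, the replicate block and leaving out each replicate. Scripts ran under Python 3.11.15 with numpy 2.4.6, pandas 2.3.3, scipy 1.17.1 and matplotlib 3.10.9.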

Additional observations from a re-analysis of the deposited data

How the results depend on the processing

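The conventional libraries had 0 summits, a ratio of 0 and 0 genes under every alternative tried. For bisulfite and hmC-Seal, joining summits into regions, requiring the summit inside the window, the density over autosomes and X, and the mean window of all protein-coding genes (ratios 1.30 and 0.826) moved no value by more than the spread between replicates. With a −log10 q of at least 3, the mean number of summits in the 10 windows was 2.5 for bisulfite and 3 for hmC-Seal, and hmC-Seal reached 3 genes in place of 7, while the share of all protein-coding genes went from 71.4% to 49.6%. With 50 kb on either side, bisulfite had a mean of 0.5 summits, a ratio of 0.415 and 1 gene (17.3% of all genes), and hmC-Seal 2 summits, 0.398 and 3 genes (51.6%). With 20 kb, bisulfite had 0.5 summits, 0.853 and 1 gene (10.0%), and hmC-Seal 1 summit, 0.408 and 1 gene (32.5%). In both of these windows the bisulfite summit was in bisulfite 1 and every hmC-Seal summit in hmC-Seal 2, so each mean rests on a single library. With lists of equal length, both had 0 summits, a ratio of 0 and 0 genes, but uniform placement of 227 entries gives at most 0.176 summits in a library, so this setting says nothing about the windows. With an estimated pileup of at least 10, bisulfite had 2 summits, and hmC-Seal 1.5 summits, a ratio of 0.694 and 3 genes (31.3% of all genes). Every hmC-Seal summit kept was in hmC-Seal 1, those of hmC-Seal 2 reaching at most 7, so these means describe neither library. Without Eomes, chosen after seeing the data, bisulfite had 1.5 summits and a mean ratio of 0.918, with 0.502 in bisulfite 1 and 1.33 in bisulfite 2, and hmC-Seal a ratio of 0.663. The mean hmC-Seal ratio was below 1 with Eomes kept, too, at 0.947 for regions and 0.965 with a −log10 q of at least 3. Fewer entries or shorter windows enter these settings by construction; other causes were not tested.

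Without each replicate in turn, bisulfite kept a number of 3, with ratios from 1.34 to 1.78 and 2 to 3 genes in place of 4 (21.8% and 17.3% of all genes in place of 28.2%); hmC-Seal ran from 4 to 8 summits, from 0.858 to 1.30 and from 3 to 5 genes in place of 7 (30.6% and 64.1% in place of 71.4%), the 3 being those of replicate 1. With the replicate number as a block, differences in summits in the 10 windows were taken within each number. Their means were 6 for hmC-Seal minus conventional, 3 for bisulfite minus conventional and 3 for hmC-Seal minus bisulfite. With 1 library of each number per preparation, these means must equal the unpaired values. Within numbers 1 and 2 the differences were, in the same order, 4 and 8, 3 and 3, and 1 and 5. In the study's sample names, conventional and bisulfite libraries of the same number carry the same pool number. No gene passed an adjusted p of 0.05 in the exact permutation tests with or without the block (0 genes at an unadjusted p under 0.05), and none could, since the smallest p is 0.33, or 0.5 with the block. Counts this low, and summits of 3 to 5 fragments in hmC-Seal 2, limit what a window can show.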

Other observations

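Among the 24 other lineage regulators, 2 had a summit in a conventional library, 1 in each, beside the 2.03% and 2.32% of all protein-coding genes in conventional 1 and 2, and they are named here after their values were seen. The first is Tfap2c, a trophectoderm and germ cell AP-2 factor, whose window held the place chr2:172577314-172577633, 18692 bp from the gene span and inside the long non-coding RNA gene Gm36038. It was called in 5 libraries, all except conventional 2. Over the genome, 148 of 15828 places were called in at least 5 libraries. Conventional 1 gave a fold enrichment of 5.91, bisulfite 1 and 2 gave 15.9 and 12.6, and hmC-Seal 2 gave 8.44; hmC-Seal 1 listed 2 summits, of 8.19 and 4.92. By −log10 q it stood at 82.8% of the list in conventional 1, at 3.65% and 5.39% in bisulfite 1 and 2, at 40.3% and 82.0% for the 2 summits of hmC-Seal 1, and at 10.8% in hmC-Seal 2.

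The second is Pdgfra, a receptor of primitive endoderm, with a place 66.0 kb upstream at chr5:75085253-75085442, also called in 5 libraries, here all except conventional 1. Conventional 2 gave a fold enrichment of 8.41, bisulfite 1 and 2 gave 12.4 and 10.2, and hmC-Seal 1 and 2 gave 19.1 and 6.05. The nearest gene to this place is Gsx2, a homeobox gene of the ventral forebrain, 7360 bp away. Hhex, a homeobox gene of anterior endoderm, had a place called in both bisulfite libraries and in hmC-Seal 1. It lies 54.3 kb past the start of Hhex at chr19:37489063-37489160, with fold enrichments of 11.0, 10.2 and 15.5. Hhex is also named after its values were seen, and 942 of 15828 places over the genome were called in at least 3 libraries.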
